A study of Mus musculus with 9 samples.

Results

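Loss of growth hormone-releasing hormone was examined in the brown adipose tissue (BAT) of female mice by comparing the libraries titled KO_F with the libraries titled WT_F, which make up 5 of the 9 RNA sequencing libraries of the series. The 2 KO_F libraries come from female GHRH-KO mice, which carry a knockout of the *Ghrh* gene, and the 3 WT_F libraries from female wild-type littermates. All the mice shared a mixed C57BL6 and 129SV background and free access to the same chow, and were kept under standard housing conditions. The 9 libraries come from 9 animals. The ages of the mice were not used here, and the design of the deleted allele and the litter of each animal are not given in the sources used here. The 4 libraries from males (2 KO_M and 2 WT_M) served only as an outside check.

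GHRH is a hypothalamic peptide that drives the pituitary to release growth hormone (GH). GH binds its receptor GHR, which activates the kinase JAK2 and the transcription factor STAT5, and STAT5 in turn switches on *Igf1* as well as feedback inhibitors of the receptor such as *Cish* and *Socs2*. Brown fat burns fatty acids and glucose to make heat through the mitochondrial uncoupling protein UCP1.

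The measurement is FPKM, the sequenced fragments of a gene scaled to its transcript length and to the library's total fragments, for 24356 gene symbols in each library. How many fragments each library held is not known from the files. Genes with an FPKM above 0 in all 5 female libraries and a mean of at least 1 were tested, which left 10686 genes. Differences are given on the log2 FPKM scale as KO_F minus WT_F, with the standard error (SE) and the Benjamini-Hochberg adjusted p of limma over all genes tested. A gene was called when that p was under 0.05, and the groups were said not to overlap when every KO_F library lay on the same side of every WT_F library.

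The *Ghrh* transcript itself ran against the labels. *Ghrh* (chr2:157329497-157347506, minus strand, mm10) had 0.846 and 0.233 FPKM in the libraries labelled KO_F and was listed at 0 in each of the 3 libraries labelled WT_F. The males showed the same split, with 0.799 and 0.470 FPKM in KO_M and 0 in both WT_M libraries. Which part of the gene is deleted is not given in the sources used here, and reads from a part that remains check nothing. *Cish* and *Igf1*, transcripts that GH is known to raise, were lower in the libraries labelled KO_F, with the values given below. Groups are called by their labels throughout, and every direction below is that of the libraries labelled KO against those labelled WT. Sex did follow the labels, since *Xist*, the RNA of the inactive X chromosome, had 8.84 and 6.99 FPKM in KO_F and 7.26, 7.94 and 7.49 in WT_F, while the Y-linked *Ddx3y*, *Uty*, *Kdm5d* and *Eif2s3y* stayed between 0 and 0.102 FPKM in all 5 female libraries.

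All 5 libraries held the markers of brown fat. *Ucp1* reached 2992 and 2460.3 FPKM in KO_F and 1649.6, 2086 and 2325 in WT_F, and the summed FPKM of 12 brown adipocyte markers was 8167 to 8350 in KO_F and 6601 to 7895 in WT_F. Tissue other than brown fat was also present. The summed FPKM of 8 skeletal muscle markers was 4640 and 2137 in KO_F against 1802, 1180 and 902 in WT_F, and that of 6 mammary epithelium markers was 46.8 and 11.8 in the first 2 WT_F libraries against at most 0.877 in the other 3. The milk protein genes *Csn2* and *Wap* were listed at 0 in every library, and the 6 lymphocyte markers summed to 2.74 or less in all 5. In these bulk samples, fewer cells of a type and less RNA per cell cannot be told apart.

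In the libraries labelled KO_F, *Cish*, *Igf1* and 9 of 16 collagen chains were called lower, and *Igf2*, *H19*, *Fasn* and 6 of 27 genes of glucose uptake and glycolysis were called higher. Limma called 163 genes higher (1.53% of the genes tested) and 316 lower (2.96%). Of these, 17 of the higher had a WT_F mean below 1 FPKM and 56 of the lower a KO_F mean below 1, and passed the filter on low values only through the group where they are high. Among them are *Hcn2*, *Dupd1* and *Hpd* on the higher side. On the lower side they include *Cish*, *Igf1*, *Nnat*, *Hspa12a*, *Svep1*, *Thbs1*, *Cma1*, *Cpa3* and *Hbb-bs*. Groups did not overlap for 1610 genes that were higher (15.1%) and 2809 that were lower (26.3%), which include all 479 called genes, and 86 and 241 of these passed that filter in the same way. With 2 libraries against 3, an exact permutation test cannot go below a two-sided p of 0.2, so the absence of overlap is given as a description. The counts of each list below are to be read beside these shares of all genes tested. The median difference over all genes tested was -0.05. The median difference of the called genes was 1.09 for those higher and -1.01 for those lower, and 92 and 161 of them differed by at least 1 on the log2 scale.

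The count of calls depended on which libraries entered the fit. There were 6 higher and 16 lower calls without WT_F replicate 2, 14 and 17 without KO_F replicate 1, 8 and 20 without KO_F replicate 2, 99 and 154 without WT_F replicate 3, and 157 and 179 without WT_F replicate 1. Without WT_F replicates 1 and 2 together, an alternative chosen after seeing the data that leaves 1 WT_F library, limma called 1 gene higher and 0 lower. When all 9 libraries shared one estimate of the spread, the same contrast gave 4 higher and 10 lower calls, and all 14 were among the 479. The estimates are the same in both fits, so the larger fit is not a separate check of these genes. Of the 478 called genes that entered it, 405 had an unadjusted limma p under 0.05. An ordinary linear model of genotype, sex and their interaction over the 9 libraries kept 1 of the 478 at an adjusted p under 0.05. Scaling moved the balance of directions: limma called 239 genes higher and 310 lower under median centring and 221 and 279 under quantile normalization. Without overlap, 2326 were higher and 2167 lower under median centring and 2282 and 2289 under quantile normalization, so the excess of lower genes without overlap rests on the scale of the files.

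The GH signalling gene with the largest fall was an inhibitor of the receptor. *Cish* (chr9:107296026-107302784, plus strand), which blocks the GH receptor once STAT5 is active, had 1.26 and 0.474 FPKM in the libraries labelled KO_F and 14.5, 19.1 and 9.52 in those labelled WT_F. Both KO_F values were far below the lowest WT_F value, and the log2 difference was -4.16 ± 0.45 (SE, limma adjusted p = 0.0206). *Socs2*, a second inhibitor of the receptor, had 1.46 and 1.34 FPKM in KO_F and 3.12, 5.61 and 3.51 in WT_F, a difference of -1.49 ± 0.26 (limma adjusted p = 0.0355). These were the 2 members called of 15 tested in the list of GH receptor and STAT5 signalling genes. Without overlap, 9 members were lower and 1 was higher, and the median difference of the list was -0.20.

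The receptor gene itself was not called. *Ghr* (chr15:3317760-3583492, minus strand) had 42.6 and 50.7 FPKM in KO_F against 97.3, 84.4 and 62.8 in WT_F, so the groups did not overlap, with a difference of -0.79 ± 0.19 (limma adjusted p = 0.0726). *Igfals*, which encodes the subunit that holds IGF-I in its circulating complex, had 1.29 and 0.994 FPKM in KO_F and 5.34, 4.46 and 1.87 in WT_F (limma adjusted p = 0.0900). The kinase gene *Jak2* had 4.07 and 3.80 FPKM in KO_F and 4.74, 4.18 and 4.25 in WT_F, a difference of -0.16 ± 0.12 without overlap (limma adjusted p = 0.522). *Stat5a* had 23.8 and 24.4 FPKM in KO_F and 22.9, 24.6 and 19.1 in WT_F, which overlapped. Of the other inhibitors in the list, *Socs1* did not pass the filter on low values, and 3 were tested and not called. *Socs3* (-0.20, limma adjusted p = 0.643) and *Ptpn1* (-0.10, limma adjusted p = 0.632) were lower without overlap by small amounts, and *Ptpn6* (-0.61, limma adjusted p = 0.414) overlapped.

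STAT5 binds the palindrome TTCNNNGAA, which reads the same on both strands, so 1 search covers both. The motif was looked for in the RefSeq promoter windows (GRCm38.p6), which run from 250 bases before to 50 bases after each start site. *Cish* and *Bcl6* are shown because these are the GH signalling genes with more than 1 match in a window. The motif is in capitals and each sequence reads 5′ to 3′ along the gene.
Cish: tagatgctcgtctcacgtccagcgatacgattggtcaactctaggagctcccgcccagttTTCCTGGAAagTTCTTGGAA
Bcl6: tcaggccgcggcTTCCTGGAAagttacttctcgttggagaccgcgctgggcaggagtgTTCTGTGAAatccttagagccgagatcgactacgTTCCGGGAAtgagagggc
The *Cish* stretch is chr9:107296599-107296678 on the plus strand and covers the 60 bases before the start site and the first 20 transcribed bases, with both matches in the transcribed part. The *Bcl6* stretch is chr16:23981354-23981463 on the minus strand, and its 3 matches begin 168, 122 and 88 bases before the start site. *Bcl6*, a repressor that STAT5 is known to act on, had 21.7 and 19.2 FPKM in KO_F and 30.4, 24.4 and 27.1 in WT_F, without overlap and not called (-0.41 ± 0.12, limma adjusted p = 0.112). None of the windows of *Igf1*, *Igf2* or *Ghr* held the motif. Over all 8127 tested genes with a window, 7.78% held it, against 10.3% of 223 genes called lower and 4.8% of 125 called higher. Those called shares rest on 23 and 6 genes. In the wider sets without overlap, 8.52% of 2090 lower and 7.9% of 1240 higher genes held it, both close to all tested genes. A match is a match of letters, and binding was not measured.

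The insulin-like growth factor (IGF) system split between its ligands. *Igf2* (chr7:142650766-142666816, minus strand), a growth factor mainly of the fetus, had 24.9 and 20.2 FPKM in KO_F and 4.42, 6.10 and 5.24 in WT_F. Its difference of 2.10 ± 0.17 had the lowest p of all genes that were higher (limma adjusted p = 0.0121). *Igf1* (chr10:87858265-87937042, plus strand), the main GH-dependent growth factor, went the other way with 0.713 and 0.892 FPKM in KO_F and 5.66, 4.75 and 2.68 in WT_F. Every KO_F value was below every WT_F value, with a difference of -2.38 ± 0.32 (limma adjusted p = 0.0266). *Igf2* was also called when all 9 libraries were fitted together, and *Igf1* was not. In GENCODE M21, 61.2% of the 50-base stretches of *Igf2* transcripts lie also in an overlapping gene model, and reads of the 2 models cannot be separated here.

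Of 16 tested members of the IGF list, 1 was called higher and 5 lower, with a median difference of -0.71. Without overlap 2 were higher (12.5%) and 10 lower (62.5%), against 15.1% and 26.3% of all genes tested. *Irs2*, an adaptor of the insulin and IGF-I receptors, had 6.15 and 5.66 FPKM in KO_F and 11.4, 15.9 and 21.4 in WT_F (-1.41 ± 0.24, limma adjusted p = 0.0353). *Grb14*, which inhibits the insulin receptor, had 13.9 and 15.5 FPKM in KO_F and 27.4, 35.1 and 25.3 in WT_F (limma adjusted p = 0.0291). *Igfbp6*, a binding protein with a preference for IGF-II, had 11.03 and 10.1 FPKM in KO_F and 23.8, 20.2 and 17.3 in WT_F (limma adjusted p = 0.0284). All 3 were lower without overlap, and *Igfbp5* (-0.72, limma adjusted p = 0.0497) was the remaining call. *Igf1r*, the receptor for both ligands, had 1.57 and 1.12 FPKM in KO_F and 0.898, 1.01 and 1.21 in WT_F, which overlapped.

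*Igf2* is an imprinted gene, expressed from the paternal copy, and shares its locus with *H19*, a noncoding RNA of the maternal copy. *H19* had 65.7 and 51.1 FPKM in KO_F and 24.99, 16.8 and 12.2 in WT_F, and rose by 1.75 ± 0.29 (limma adjusted p = 0.0330). Among 25 tested imprinted genes, 4 were called higher and 3 lower, and 5 were higher and 9 lower without overlap. The shares without overlap were 20% and 36%, against 15.1% and 26.3% of all genes tested. *Mcts2*, a retrogene on chromosome 2, had 17.9 and 17.5 FPKM in KO_F and 8.27, 8.84 and 9.13 in WT_F (1.02 ± 0.10, limma adjusted p = 0.0145). *Nnat*, which encodes the membrane proteolipid neuronatin, was the imprinted gene with the lowest p among those lower, with 1.01 and 0.778 FPKM in KO_F and 7.85, 11.3 and 16.5 in WT_F (-3.68 ± 0.30, limma adjusted p = 0.0139). *Blcap*, in whose intron *Nnat* lies, had 34.5 and 35.2 FPKM in KO_F and 59.5, 53.6 and 46.4 in WT_F (limma adjusted p = 0.0447). *Mcts2* lies within *H13*, which was also called higher (0.53, limma adjusted p = 0.0470), and reads of such overlapping genes cannot be told apart where strand is not counted. The imprinted genes moved in both directions, and their median difference was -0.08.

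*Nnat*, *Blcap* and *Mcts2* lie on chromosome 2, as does *Ghrh*. Within 5 Mb on either side of *Ghrh*, 86 genes were tested, of which 4 were called higher and 6 lower, and 20.9% were higher and 34.9% lower without overlap. Within 2, 10 and 20 Mb, 14.9%, 16.4% and 14.2% were higher without overlap, and 36.2%, 36.2% and 30.7% were lower. On the whole chromosome these shares were 16.4% and 26.4%. The strain of the alleles around *Ghrh* is not known here, so linked strain alleles and the loss of the gene cannot be told apart.

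**Figure D1:**
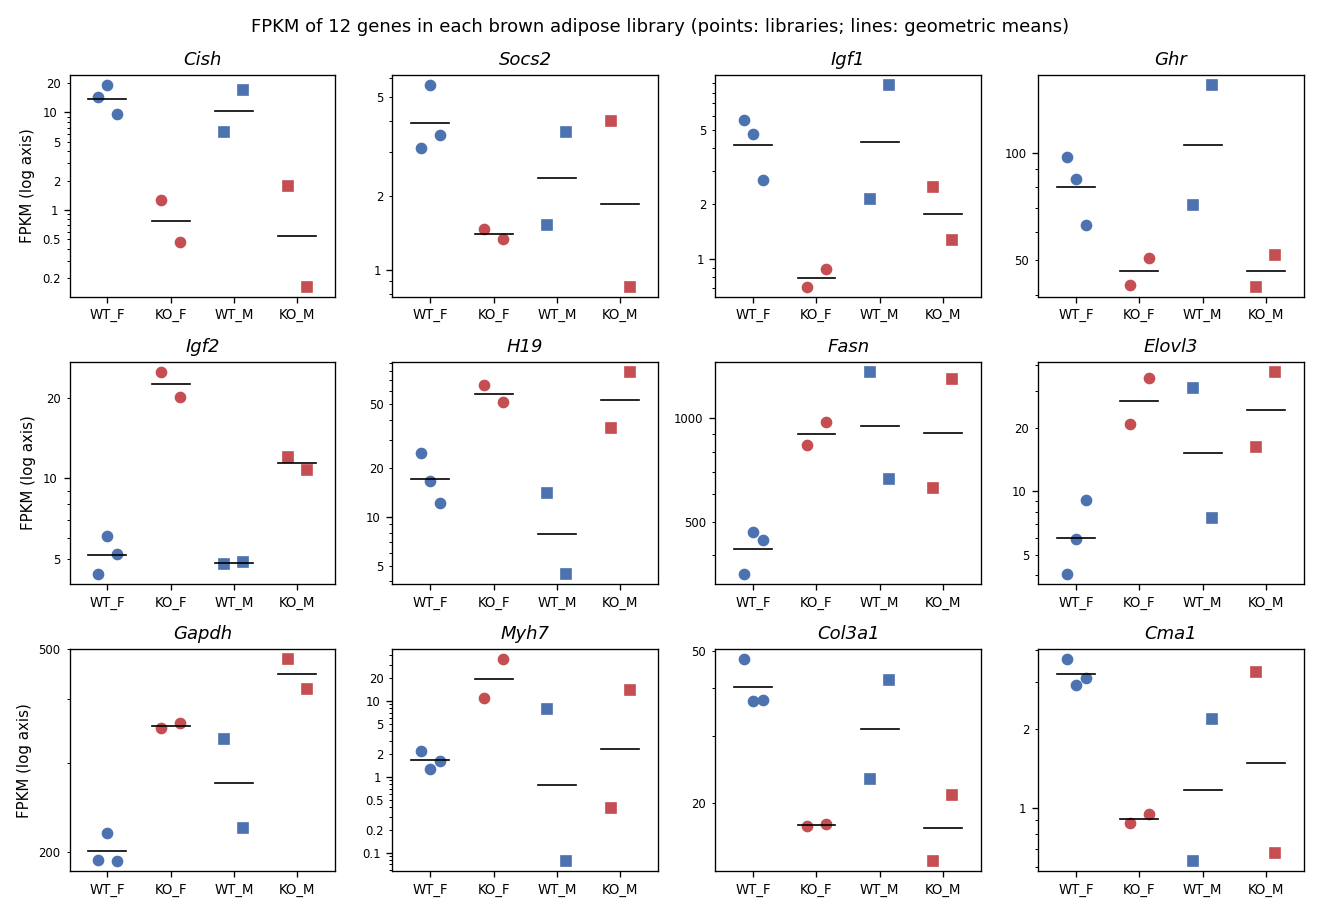
FPKM of 12 genes in each library, on log axes. Points are libraries, circles female and squares male, blue labelled WT and red labelled KO, and black lines are geometric means. In the female libraries all 12 genes separate the groups, with *Cish*, *Socs2*, *Igf1*, *Ghr*, *Col3a1* and *Cma1* lower and the other 6 higher in KO_F, whereas the male groups overlap for *Socs2*, *Igf1*, *Fasn*, *Elovl3*, *Myh7* and *Cma1*.

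Genes of glucose uptake and glycolysis were higher. Of 27 tested, 6 were called higher and none lower, and without overlap 20 were higher and 1 lower, the highest share of any metabolic list. The median difference was 0.49. *Gapdh*, a glycolytic dehydrogenase, had 350.4 and 358 FPKM in KO_F and 194, 218 and 192 in WT_F (0.82 ± 0.09, limma adjusted p = 0.0206). *Aldoa*, the aldolase of muscle and of many other tissues, had 2412 and 2358 FPKM in KO_F and 1357, 1506 and 1384 in WT_F (limma adjusted p = 0.0249). *Pfkp*, the platelet-type phosphofructokinase, had 24.4 and 21.8 FPKM in KO_F and 12.9, 13.3 and 14.7 in WT_F (limma adjusted p = 0.0266). In each of these the replicates lay close together and the groups far apart, which naming members by low p favours. *Gpi1*, which isomerises glucose 6-phosphate, had 246 and 274 against 178, 173 and 179 FPKM in the 2 groups (limma adjusted p = 0.0284), and *Ldha*, which makes lactate, 731 and 765 against 482, 542 and 519 (limma adjusted p = 0.0344). *Slc2a4*, the insulin-responsive glucose transporter, had 136 and 136 FPKM in KO_F and 132, 122 and 127 in WT_F, a difference of 0.10 that was not called.

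Skeletal muscle transcripts moved in the same libraries. All 8 tested muscle markers had a positive difference (median 1.39), and 7 were higher without overlap, but none was called. *Ckm*, the muscle creatine kinase, had 475 and 192 FPKM in KO_F and 172, 116 and 87.4 in WT_F, so KO_F replicate 1 was well above the rest and replicate 2 just above the highest WT_F library. Slow-twitch genes were among the largest increases of all. In a list of 10 chosen after their values were seen, 6 were called higher and 9 were higher without overlap, while of 12 fast-twitch genes none was called and 9 were higher without overlap. The slow myosin gene *Myh7* had 10.9 and 35.5 FPKM in KO_F and 2.21, 1.27 and 1.61 in WT_F (3.57 ± 0.48, limma adjusted p = 0.0266). The light chain gene *Myl3* differed by 3.44 ± 0.45 (limma adjusted p = 0.0249) and the slow troponin C gene *Tnnc1* by 3.42 ± 0.48 (limma adjusted p = 0.0266). For these 3 genes KO_F replicate 2 was the higher of the pair, the reverse of the order for *Ckm*. The part of muscle RNA in their differences was not tested.

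Mitochondrial and amino acid genes differed by less. Of 31 genes of the citric acid cycle and pyruvate entry, 19 were higher and 0 lower without overlap, with a median of 0.12, and limma called none of them in either direction. *Mpc1*, a subunit of the mitochondrial pyruvate carrier, had 659.5 and 756 FPKM in KO_F and 506, 543 and 551 in WT_F (limma adjusted p = 0.0757). *Cs*, citrate synthase, had 789.6 and 781 against 732, 769 and 766 FPKM, a difference of 0.06 ± 0.08. Of 81 oxidative phosphorylation genes, 19 were higher and 3 lower without overlap, with a median of 0.06 (-0.012 under quantile normalization) and no call. Those shares without overlap were 23.5% and 3.7%, against 15.1% and 26.3% of all genes tested. *Cox6a2*, a cytochrome oxidase subunit of muscle and heart as well as brown fat, had 106 and 64.6 FPKM in KO_F and 41.9, 21.3 and 14.7 in WT_F (limma adjusted p = 0.0714). Of 74 mitochondrial ribosome genes, 24 were higher and 7 lower without overlap, with a median of 0.04, and *Mrps27* was the 1 called, with 36.5 and 32.4 FPKM in KO_F and 24.8, 25.1 and 21.9 in WT_F (limma adjusted p = 0.0455). These medians of 0.04 to 0.12 stand beside -0.05 for all genes tested. Positive differences numbered 25 of 31 citric acid cycle, 59 of 81 oxidative phosphorylation and 45 of 74 mitochondrial ribosome genes, against 4375 of 10686 tested. Mean log2 levels overlapped for oxidative phosphorylation, at 0.066 in WT_F replicate 1 and 0.044 in KO_F replicate 1 relative to the WT_F mean. The mitochondrial ribosome overlapped too, at 0.050 and 0.022 in the same libraries.

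Breakdown of branched-chain amino acids showed 3 calls, all higher. Of 27 genes tested, 17 were higher and 2 lower without overlap, with a median of 0.17. *Ppm1k*, the phosphatase that activates the branched-chain ketoacid dehydrogenase, had 13.2 and 13.7 FPKM in KO_F and 8.9999, 8.91 and 8.53 in WT_F (0.61 ± 0.09, limma adjusted p = 0.0282). *Hsd17b10*, which acts in isoleucine breakdown, had 265 and 291 FPKM in KO_F and 209, 196 and 184 in WT_F (limma adjusted p = 0.0404). *Dbt*, the E2 subunit of that dehydrogenase, had 66.03 and 72.003 against 48.8, 46.02 and 53.6 FPKM (limma adjusted p = 0.0467). The 3 genes rose together without overlap, and by less than 1 on the log2 scale.

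Other amino acid enzymes gave 5 higher calls and 1 lower among 35 tested. Without overlap 11 were higher (31.4%) and 7 lower (20%), against 15.1% and 26.3% of all genes tested. The median was 0.04, and its sign depended on the processing. *Prodh*, proline dehydrogenase, had 21.2 and 27.5 FPKM in KO_F and 13.5, 12.2 and 12.7 in WT_F (0.92 ± 0.13, limma adjusted p = 0.0268). *Got1*, the cytosolic aspartate aminotransferase, had 32.1 and 23.2 against 12.6, 10.8 and 11.2 FPKM (1.24 ± 0.16, limma adjusted p = 0.0235). *Aspg*, an asparaginase, had 87.04 and 77.5 against 19.6, 18.6 and 34.8 FPKM (1.82 ± 0.27, limma adjusted p = 0.0282). *Hal*, which breaks down histidine, was the lower call (-0.95, limma adjusted p = 0.0447). *Hpd*, of tyrosine breakdown, had 2.35 and 3.09 against 1.27, 0.692 and 0.899 FPKM (limma adjusted p = 0.0405). The increase of *Aspg* was larger than that of any called gene of the branched-chain list.

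Of 24 tested lipogenesis genes, 3 were called higher and 2 lower, and the median was 0.25. Without overlap 9 were higher (37.5%) and 3 lower (12.5%), against 15.1% and 26.3% of all genes tested. *Fasn*, fatty acid synthase, had 835 and 974 FPKM in KO_F and 353, 465 and 443 in WT_F (1.11 ± 0.14, limma adjusted p = 0.0249). *Acaca*, which makes its substrate malonyl-CoA, had 135 and 155 FPKM in KO_F and 80.8, 92.6 and 88.4 in WT_F (0.73 ± 0.10, limma adjusted p = 0.0266). *Elovl6*, which lengthens the product, had 88.5 and 100.3 FPKM in KO_F and 65.1, 47.7 and 48.6 in WT_F (limma adjusted p = 0.0404). These 3 genes rose. The lower calls were 2 genes that act on polyunsaturated fatty acids. The elongase gene *Elovl5* had 17.1 and 16.3 FPKM in KO_F and 36.9, 46.4 and 33.6 in WT_F (-1.21 ± 0.14, limma adjusted p = 0.0223), and the desaturase gene *Fads1* 2.87 and 3.90 against 9.93, 6.66 and 6.46 (limma adjusted p = 0.0449). *Scd1*, the stearoyl-CoA desaturase, had 2239 and 2661 FPKM in KO_F and 2578, 2369.7 and 1532 in WT_F, which overlapped.

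Of 34 fatty acid oxidation genes, 14 were higher and 3 lower without overlap, with a median of 0.15. The 1 call was *Acsl5*, an acyl-CoA synthetase, with 121 and 117 FPKM in KO_F and 49.7, 77.7 and 65.2 in WT_F (limma adjusted p = 0.0447). *Cpt2*, of the carnitine shuttle, had 197 and 204 against 129.8, 148 and 158 FPKM, without overlap (limma adjusted p = 0.0579). Lipolysis, lipid droplet and fatty acid uptake genes numbered 24, of which 5 were higher and 5 lower without overlap and none was called, and *Pnpla2*, the first lipase of fat breakdown, had 1238 and 1233 against 1232, 1151 and 1153 FPKM. Cholesterol synthesis, with 24 genes, had 3 higher and 5 lower without overlap and no call. The shares higher and lower were 20.8% and 20.8% for the lipolysis list and 12.5% and 20.8% for cholesterol synthesis. Over all genes tested they were 15.1% and 26.3%.

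The thermogenic programme had 2 higher and 1 lower calls among 34 genes, with a median of 0.17. Without overlap 13 were higher (38.2%) and 5 lower (14.7%), against 15.1% and 26.3% of all genes tested. *Elovl3*, an elongase induced by cold in brown fat, had 20.9 and 34.6 FPKM in KO_F and 4.05, 5.90 and 9.12 in WT_F (2.16 ± 0.36, limma adjusted p = 0.0335). *Acot11*, a thioesterase also known as brown-fat-inducible, had 60.1 and 74.1 FPKM in KO_F and 20.05, 29.004 and 33.3 in WT_F (limma adjusted p = 0.0335). *Adrb1*, the beta-1 adrenergic receptor, was lower with 5.11 and 9.31 FPKM in KO_F and 17.5, 16.5 and 16.8 in WT_F (-1.29 ± 0.23, limma adjusted p = 0.0382). *Ucp1*, whose values are given above, was higher in both KO_F libraries than in any WT_F library, by 0.44 ± 0.17, and was not called (limma adjusted p = 0.202). *Dio2*, which activates thyroid hormone, had 21.6 and 21.3 FPKM in KO_F and 14.9, 47.4 and 60.9 in WT_F, which overlapped.

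Of 17 clock genes tested, 2 were called higher, 9 were higher (52.9%) and 1 lower (5.88%) without overlap, and the median was 0.32. *Ciart*, a repressor within the clock, had 14.8 and 13.2 FPKM in KO_F and 3.47, 3.83 and 6.06 in WT_F (1.70 ± 0.24, limma adjusted p = 0.0267). *Tef*, a clock-driven transcription factor, had 40.1 and 42.8 FPKM in KO_F and 25.3, 26.5 and 29.1 in WT_F (limma adjusted p = 0.0282). *Per2*, a core repressor, had 7.01 and 5.46 against 1.60, 2.68 and 3.29 FPKM, without overlap (limma adjusted p = 0.0622). The hour at which each mouse was killed is not given in the sources used here, and its part in these differences was not tested. Stress genes were mixed. Of 28 in the unfolded protein and amino acid stress list, 2 were called higher and 1 lower. Without overlap 6 were higher (21.4%) and 11 lower (39.3%), against 15.1% and 26.3% of all genes tested. *Trib3*, a target of that response, had 5.22 and 4.12 FPKM in KO_F and 2.33, 1.73 and 1.40 in WT_F (limma adjusted p = 0.0354), and *Herpud1*, of protein degradation at the endoplasmic reticulum, 55.2 and 54.4 against 36.5, 28.2 and 32.1 (limma adjusted p = 0.0291). The chaperone gene *Hspa5* had 91.9 and 95.2 against 112, 108 and 131 FPKM, lower without overlap and not called. Among 44 antioxidant genes, 12 were higher (27.3%) and 6 lower (13.6%) without overlap and none was called, against 15.1% and 26.3% of all genes tested.

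**Figure D2:**
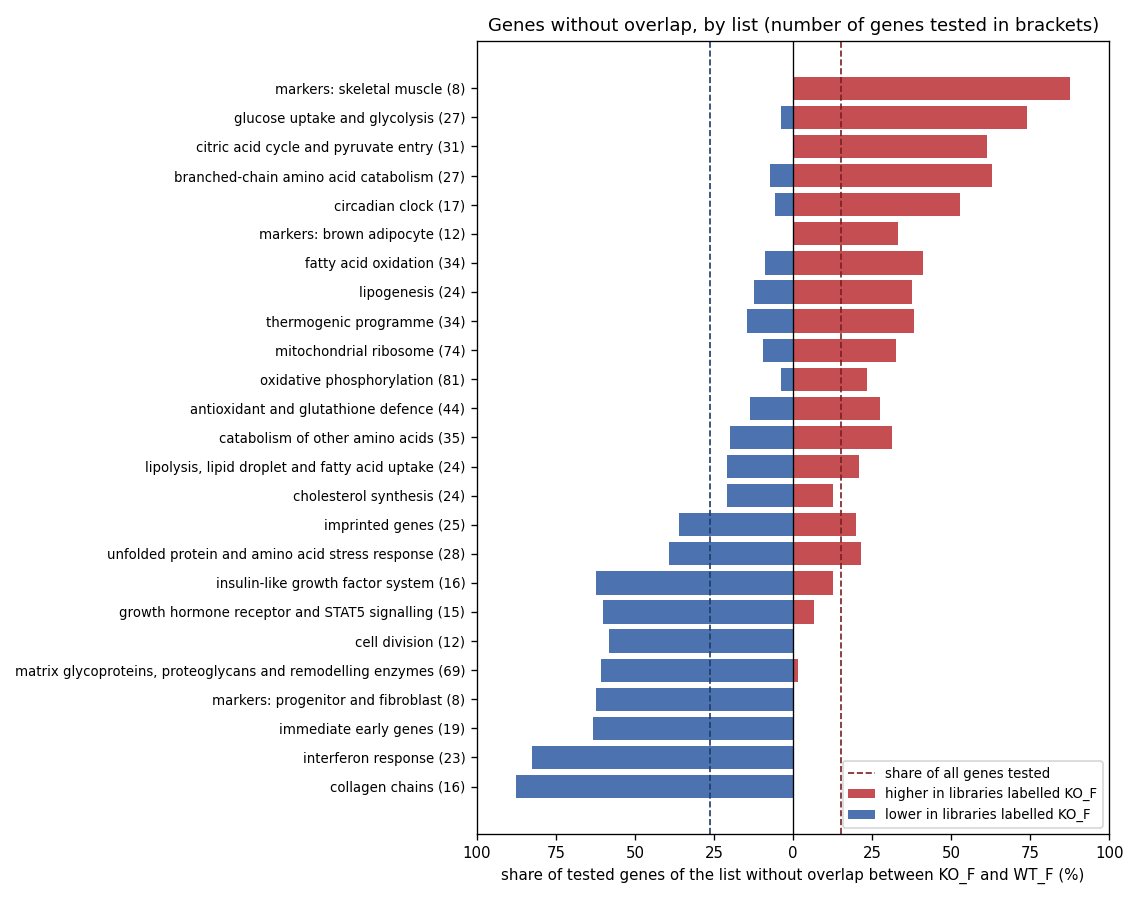
Share of the tested genes of each list whose KO_F and WT_F libraries did not overlap, in percent, with red to the right for higher and blue to the left for lower in KO_F. Dashed lines mark the shares over all genes tested (15.1% higher and 26.3% lower), and lists with fewer than 8 tested genes are left out. Collagen chains reach 87.5% lower, skeletal muscle markers 87.5% higher and glucose uptake and glycolysis 74.1% higher.

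Extracellular matrix genes were lower as a group. Of 16 tested collagen chains, 9 were called lower and none higher, and 14 were lower without overlap, with a median of -0.75. *Col3a1*, a fibrillar collagen of soft tissue, had 17.4 and 17.6 FPKM in KO_F and 47.6, 36.95 and 37.2 in WT_F (-1.20 ± 0.13, limma adjusted p = 0.0206). *Col1a1*, of type I collagen, had 6.40 and 6.17 FPKM in KO_F and 18.4, 13.4 and 15.3 in WT_F (-1.31 ± 0.15, limma adjusted p = 0.0206), and *Col1a2*, its partner chain, 7.52 and 8.50 against 23.7, 17.2 and 17.996 (limma adjusted p = 0.0232). *Col15a1*, a basement membrane collagen, had 4.27 and 4.26 FPKM in KO_F and 9.65, 9.45 and 8.89 in WT_F (limma adjusted p = 0.0142). In all 4 the KO_F replicates lay close together and well below the lowest WT_F value, which naming members by low p favours.

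Of 69 other matrix genes, 14 were called lower and none higher, and 42 were lower and 1 higher without overlap, with a median of -0.52. *Svep1*, a large adhesion protein, had 0.463 and 0.586 FPKM in KO_F and 2.48, 2.99 and 2.16 in WT_F (-2.28 ± 0.22, limma adjusted p = 0.0152), and was called in the fit of 9 libraries too. *Thbs1*, thrombospondin 1, had 0.690 and 0.745 FPKM in KO_F and 3.55, 3.51 and 3.45 in WT_F (-2.29 ± 0.15, limma adjusted p = 0.00534). *Sparc*, which binds collagen, had 121 and 107 FPKM in KO_F and 179, 191 and 184 in WT_F (limma adjusted p = 0.0244). *Timp2*, an inhibitor of matrix proteases, had 11.97 and 10.2 against 24.98, 20.9 and 20.7 FPKM (limma adjusted p = 0.0237).

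Markers of the cells that make matrix were lower as well. All 8 tested progenitor and fibroblast markers had a negative difference, with 2 called lower, 5 lower without overlap and a median of -0.51, and their summed FPKM was 133 to 151 in KO_F and 187 to 277 in WT_F. *Pdgfra*, the receptor that marks adipocyte progenitors, had 1.78 and 1.66 FPKM in KO_F and 4.74, 3.82 and 3.09 in WT_F (limma adjusted p = 0.0354). *Lum*, lumican, had 5.004 and 5.97 against 22.9, 14.9 and 11.3 FPKM (limma adjusted p = 0.0399). *Lep*, leptin, which is typical of white fat, had 0.582 and 2.66 FPKM in KO_F and 22.97, 11.2 and 5.44 in WT_F, without overlap (limma adjusted p = 0.0739). Of 5 tested white adipocyte markers 1 was called, *Nnat*, and the summed FPKM of the 7 listed was 34.5 and 91.5 in KO_F against 80.9 to 324 in WT_F, which overlapped. The part of cell composition in the matrix differences was not tested.

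Interferon-response genes and macrophage markers were lower. All 23 tested interferon-response genes had a negative difference, 4 were called lower and 19 were lower without overlap, with a median of -0.84. *Tap1*, the peptide transporter of antigen presentation, had 2.51 and 2.23 FPKM in KO_F and 7.48, 4.40 and 4.93 in WT_F (-1.21 ± 0.24, limma adjusted p = 0.0447). *Bst2*, tetherin, had 11.7 and 10.9 FPKM in KO_F and 25.9, 17.6 and 20.8 in WT_F (limma adjusted p = 0.0386). All 6 macrophage markers were lower without overlap, and 2 of them were called, with a median of -0.97 and a summed FPKM of 32.5 to 44.3 in KO_F against 66.2 to 106 in WT_F. *Csf1r*, the receptor for the macrophage growth factor, had 2.90 and 2.25 FPKM in KO_F and 5.53, 4.31 and 5.25 in WT_F (limma adjusted p = 0.0378), and *C1qa*, of complement, 10.8 and 8.69 against 26.8, 18.4 and 18.8 (limma adjusted p = 0.0344). WT_F replicate 1, which also had the highest epithelial and white adipocyte sums, was the highest of the 5 libraries for all 4 of these genes.

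Immediate early genes, which respond quickly to stimuli, were mostly lower. Of 19 tested, 18 had a negative difference, 2 were called lower and 12 were lower without overlap, with a median of -0.80. *Jun* had 15.3 and 14.9 FPKM in KO_F and 38.3, 27.4 and 34.4 in WT_F (-1.13 ± 0.15, limma adjusted p = 0.0249), and *Atf3* 3.13 and 2.07 against 6.33, 6.33 and 8.52 (-1.46 ± 0.22, limma adjusted p = 0.0282). Both encode subunits of AP-1 type transcription factors. *Egr1* overlapped, with 4.29 and 11.6 FPKM in KO_F and 33.4, 8.97 and 11.7 in WT_F. Cell division genes were mostly too low to test, since 12 of 56 passed, and 7 of those 12 were lower without overlap with no call. Endothelial markers gave no call among 5 tested, with 2 lower without overlap and a summed FPKM of 101 to 135 in KO_F and 121 to 135 in WT_F. Of 4 tested nerve markers, *Mbp*, myelin basic protein, was called lower, with 8.82 and 11.2 FPKM in KO_F and 14.9, 15.7 and 14.8 in WT_F (limma adjusted p = 0.0475), and 3 were lower without overlap.

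Among the 10 genes with the lowest p on each side, several lie outside these lists. *Fam131c* had 6.06 and 4.73 FPKM in KO_F and 0.924, 1.18 and 1.19 in WT_F (2.30 ± 0.19, limma adjusted p = 0.0141). *Hcn2*, a channel of the pacemaker current, had 6.01 and 4.16 FPKM in KO_F and 0.765, 0.561 and 0.923 in WT_F (2.77 ± 0.27, limma adjusted p = 0.0167). *Gnmt*, which uses S-adenosylmethionine to methylate glycine, had 3.30 and 3.70 FPKM in KO_F and 1.01, 1.01 and 1.29 in WT_F (1.67 ± 0.18, limma adjusted p = 0.0206). All 3 were named for their low p, so their wide separation follows from that choice. *Tesc*, the calcium-binding protein tescalcin, rose by 1.77 ± 0.19 (limma adjusted p = 0.0206), *Isyna1*, of inositol synthesis, by 1.24 ± 0.14 (limma adjusted p = 0.0206), and *Dupd1*, a phosphatase of muscle, by 2.89 ± 0.26 (limma adjusted p = 0.0142). *Gm12070* shares 99.6% of its 50-base stretches with other genes, nearly all with *Gapdh*, so its value of 0.77 is not a separate measurement.

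On the lower side, *Dusp10*, a phosphatase that acts on stress kinases, had 10.3 and 10.5 FPKM in KO_F and 33.1, 27.96 and 32.96 in WT_F (-1.59 ± 0.11, limma adjusted p = 0.00534). *Hspa12a*, a distant member of the HSP70 family, had 0.946 and 1.03 FPKM in KO_F and 5.50, 6.25 and 4.68 in WT_F (-2.46 ± 0.17, limma adjusted p = 0.00534). *Ccdc3*, a secreted protein, had 11.4 and 13.6 FPKM in KO_F and 27.6, 28.7 and 28.4 in WT_F (-1.18 ± 0.10, limma adjusted p = 0.0142). Both groups were tight in each of the 3, which also follows from naming them by low p. *Apol6*, of the apolipoprotein L family, differed by -1.26 (limma adjusted p = 0.0142), *SlcUbl4a* by -3.10 (limma adjusted p = 0.00534) and *Cma1*, the chymase of mast cells, by -1.82 (limma adjusted p = 0.0142).

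Several of the largest differences rest on near-0 estimates or on transcripts that only some libraries held. *Hbb-bs*, a beta globin gene, had 0.00376 and 0.00366 FPKM in KO_F and 32.3, 11.9 and 15.2 in WT_F and the lowest p of all genes, but shares sequence with other globin genes. The adult beta globin gene *Hbb-b1* had 317 and 454 FPKM in KO_F and 491, 364 and 552 in WT_F, which overlapped. How reads were divided among these genes is not known, so the *Hbb-bs* value is uncertain. *Insl3* had 0.663, 3.85e-07 and 1.44 FPKM in WT_F against 3.33 and 3.21 in KO_F, and *H2-Q8*, of a family of similar genes, 3.93e-04 and 1.36 in KO_F against 9.73, 1.53 and 9.11 in WT_F. *Krt19*, an epithelial keratin, had 0.104 and 0.238 FPKM in KO_F and 25.1, 6.72 and 0.382 in WT_F, high in the 2 WT_F libraries with mammary markers, and *Krt7* and *Ltf* followed the same pattern. *Gchfr*, which regulates the first enzyme of tetrahydrobiopterin synthesis, had 74.4 and 101 FPKM in KO_F and 0.855, 0.948 and 16.8 in WT_F, so its 3 WT_F libraries spread widely and it was not called (5.18 ± 1.23, limma adjusted p = 0.0710). The males split the same way without overlap, with 59.1 and 80.7 FPKM in KO_M and 1.87 and 1.34 in WT_M. *Gchfr* (chr2:119167773-119172390) lies on the chromosome of *Ghrh* (chr2:157329497-157347506), but more than 20 Mb away. The part of its position in this difference was not tested.

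The male libraries did not enter the fit that called these genes. Of the 162 genes called higher in KO_F that were above 0 in all 4 male libraries, 143 (88.3%) were also higher in KO_M than in WT_M by mean log2 FPKM, against 35.6% of all genes tested, and 106 (65.4%) did not overlap in that direction, against 9.51% of all genes. Of the 316 called lower, 243 (76.9%) were lower in KO_M, against 64.4% of all genes, and 147 (46.5%) did not overlap, against 32.9% of all genes. KO_M replicate 1 stood apart, with 154 FPKM summed over 6 lymphocyte markers where the other 8 libraries had 1.09 to 2.74. Without it, 140 of 162 (86.4%) of the higher and 301 of 316 (95.3%) of the lower calls kept their direction, against 21.8% and 78.2% of all genes. The share of lower calls depended on the library left out. It was 61.4% without KO_M replicate 2, 88.6% without WT_M replicate 1 and 62.7% without WT_M replicate 2. For all genes these were 52.2%, 67.7% and 57.7%. The higher calls kept their direction in 84%, 92% and 79.8%, against 47.8%, 32.3% and 42.3% of all genes. For the wider sets without overlap, with all 4 male libraries, the shares in the same direction were 56.1% of 1609 higher and 75.1% of 2807 lower genes.

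*Cish*, *Igf2* and *H19* moved in the female direction in the males. *Cish* had 1.74 and 0.165 FPKM in KO_M and 6.31 and 16.8 in WT_M, *Igf2* 12.1 and 10.7 against 4.82 and 4.89, and *H19* 35.3 and 78.7 against 13.9998 and 4.45, all without overlap. *Igf1* overlapped in the males, with 2.46 and 1.28 FPKM in KO_M and 2.13 and 8.80 in WT_M. *Svep1* had 0.364 and 0.413 FPKM in KO_M and 3.62 and 5.51 in WT_M, and 12 of the 14 collagen chains lower without overlap in the females were so in the males too. Several lists with positive medians in the females had negative ones in the males. The male medians were -0.10 for citric acid cycle genes, -0.12 for oxidative phosphorylation, -0.20 for branched-chain amino acid breakdown, -0.20 for fatty acid oxidation and -0.28 for clock genes, against -0.10 for all genes. Without KO_M replicate 1 they were -0.014, -0.11, -0.10, -0.096 and -0.41 in that order, against -0.20 for all genes, so of these 5 lists only the clock list lay below all genes, and the median for lipogenesis went from -0.15 to 0.079. For interferon-response genes the male median was 0.04, and -0.82 without KO_M replicate 1. For glucose uptake and glycolysis it was 0.23, and 0.40 without that library, and the summed muscle markers were 4906 to 9431 FPKM in KO_M and 330 to 1571 in WT_M.

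A test of the difference between the sexes, the interaction in a limma fit over 9 libraries, called 0 of 10679 genes, while 820 had an unadjusted p under 0.05, and the smallest adjusted value was 0.246. Without KO_M replicate 1 it again called 0, with 799 at an unadjusted p under 0.05. The proline enzyme gene *Prodh* had 15.6 and 15.9 FPKM in KO_M and 26.2 and 23.4 in WT_M, lower without overlap where the female KO libraries were higher (limma adjusted p of the interaction = 0.246). *Ppm1k* was likewise lower in the males, with 7.61 and 7.46 against 10.5 and 9.62 FPKM (limma adjusted p of the interaction = 0.246). Neither difference between the sexes passed the threshold.

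**Figure D3:**
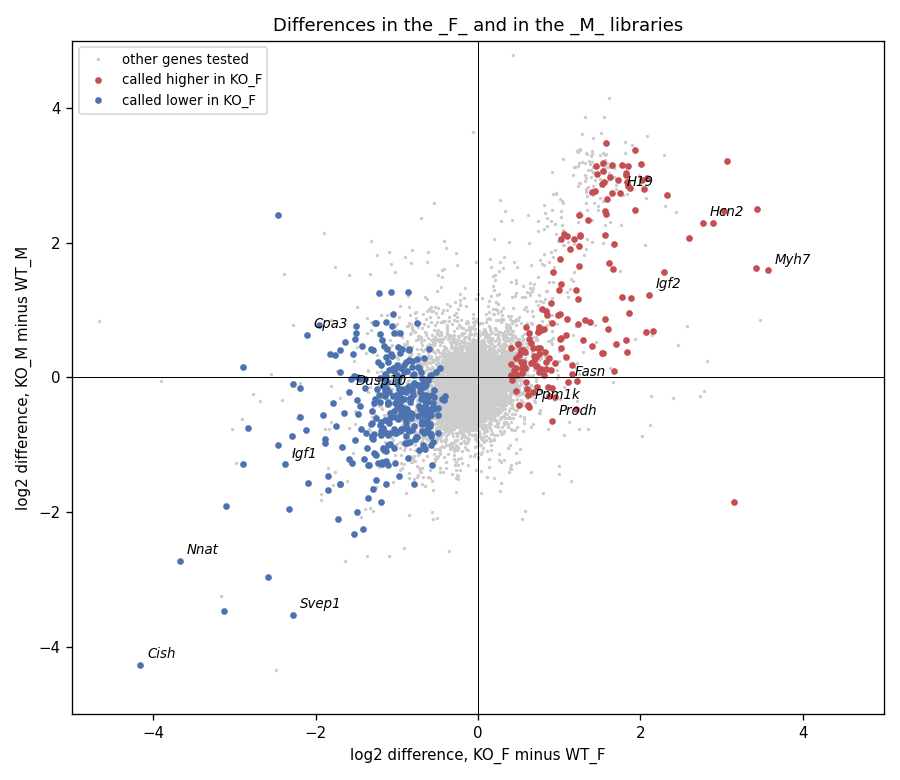
Log2 difference between libraries labelled KO and WT in females (horizontal) and in males (vertical) for each gene tested. Red points are the genes called higher and blue points those called lower in KO_F, grey points are all others, and 6 genes lie outside the plotted range. Of the red points 88.3% lie above 0 in the males and of the blue points 76.9% lie below it.

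**Figure D4:**
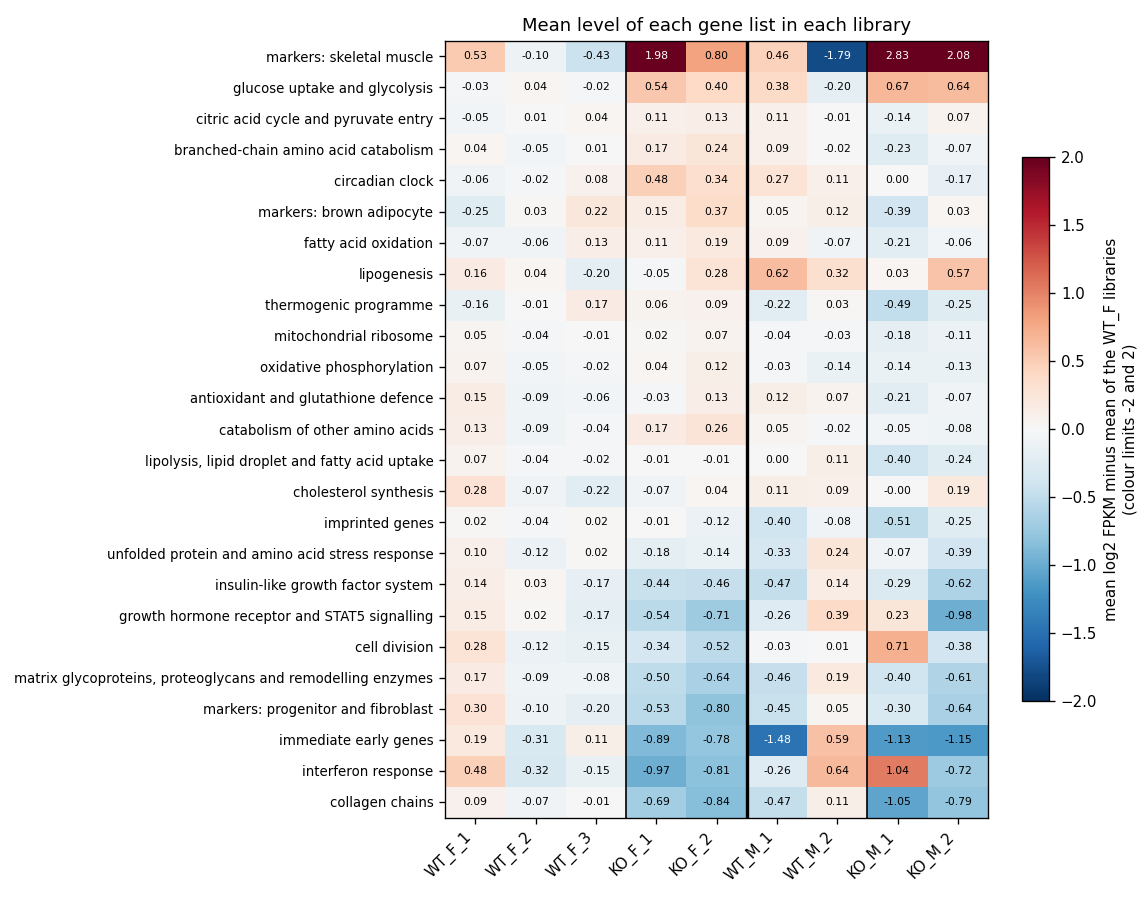
Mean log2 FPKM of each gene list in each library, minus the mean of the 3 WT_F libraries. Colours run from -2 to 2 and the value is printed in each cell. Both KO_F libraries lie below all 3 WT_F libraries for collagen chains, matrix genes, interferon response, immediate early genes, GH signalling and the IGF system, and above them for glycolysis, the citric acid cycle, the branched-chain amino acids, the clock and muscle markers.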

How the data were processed

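RNA from brown adipose tissue was sequenced as poly A selected, paired-end libraries, and the authors deposited 1 table of FPKM values per library. The submitters' processing notes name bcl2fastq 1.8.4, TopHat2 2.0.11 and Bowtie, with mouse build mm10. The annotation, and whether strand was counted, are not given in the sources used here. FPKM are not counts and the fragments per library are unknown, so no counting error can be given. In the tables, 25 gene symbols had turned into dates and were not used by name.

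Libraries were grouped by genotype and sex from their titles. Values were log2 transformed with no pseudocount, after requiring FPKM above 0 in all 5 female libraries and a mean of at least 1, so genes silent in 1 group were not tested. A further 60 genes met the mean but had a 0, of which 53 have symbols of small RNAs or predicted genes starting Mir, Snor or Gm2. Groups were compared with limma 3.58.1 in R 4.3.3 (two-sided, mean-variance trend), and p-values were adjusted by Benjamini and Hochberg. The libraries come from separate mice, 2 and 3 in the groups compared, and p-values rest on the spread between these few animals. The limma code was tested on simulated data. Summaries and plots were made in Python 3.11.15 (matplotlib 3.10.9, scipy 1.17.1, numpy 2.4.6, pandas 2.3.3). Positions are from GENCODE M21 (mm10) and were found for 99.34% of tested genes.

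The comparison, members and gene lists were chosen with earlier results of these data known. The text names the genes of GH action and label checks, the 10 lowest p in each direction among genes without overlap, the 5 largest differences each way among them, and in each list up to 5 members with the lowest p and the first 3 listed. *Igfbp5*, *H13*, *Hal*, *Socs3*, *Ptpn1* and *Ptpn6* were named after their values were seen, to complete a count. The lists of MHC, complement, mast cell, slow-twitch, fast-twitch and epithelial genes, and the fits without WT_F replicates 1 and 2 or without KO_M replicate 1, were added after seeing the data. Of 7 tested epithelial genes (of 15 listed) none was called and 4 were lower without overlap (median -3.91), and of 3 red blood cell markers 1, *Hbb-bs*, was called lower (median -0.30). Neither of 2 tested mammary markers separated the groups. Alternatives changed the filter, pseudocount, scaling, model and libraries.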

Additional observations from a re-analysis of the deposited data

Results flagged for a closer look

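The following results stand out because the female libraries moved one way and the male libraries the other, with every KO library on one side of every WT library in each sex. The value given is the male difference minus the female difference on the log2 scale, and limma called none of these differences between the sexes after adjustment over 10679 genes (lowest adjusted p 0.246). Over all genes tested, 316 were higher in KO_F and lower in KO_M without overlap, and 50 were lower in KO_F and higher in KO_M. In the same direction without overlap in both sexes, 482 were higher and 1218 lower. Taken alone, 15.1% of genes were higher and 26.3% lower in KO_F without overlap. In KO_M these shares were 9.51% and 32.9%, so some opposite pairs arise from the shares alone.

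Genes of amino acid breakdown, higher in KO_F and lower in KO_M, were *Prodh* (-1.57), *Ppm1k* (-1.03) and *Hsd17b10* (-0.92). The clock genes *Per2* (-2.12) and *Tef* (-1.07) did the same, as did *Pnpla2* (-0.45), *Slc2a4* (-0.34) and *Cs* (-0.30), for which the female difference was small. *Insl3* (-14.83) rests on near-0 estimates in WT_F replicate 2 and KO_M replicate 2. The keratin gene *Krt19* (5.51) was lower in KO_F and higher in KO_M, and its high values were in the WT_F libraries with mammary markers.

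The *Ghrh* transcript was not part of the comparison of tested genes, since WT_F libraries listed it at 0. Its lowest value in a library labelled KO_F was 0.233 FPKM, above the 0 of every WT_F library.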

How the results depend on the processing

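The number of called genes depended on the processing. Of the 479 called genes, 443 were still called under median centring, 408 under quantile normalization, 455 and 420 with pseudocounts of 0.1 and 1, and 201 with no mean-variance trend. Limma called 104 genes higher and 170 lower with a mean FPKM of at least 5, 63 and 148 with no mean-variance trend, 4 and 10 with all 9 libraries in 1 fit, 15 and 25 in that fit without KO_M replicate 1, and 1 and 0 without WT_F replicates 1 and 2, which left 1 WT_F library assumed to vary like the others. Leaving out 1 library at a time gave 6 to 157 higher and 16 to 179 lower calls. Without overlap it gave 1820 to 2846 higher and 3207 to 4419 lower genes, where fewer libraries make overlap less likely, and 1526 genes were lower at a mean of at least 5. Genes without overlap in the same direction in both sexes numbered 1700, 1084 at a mean of at least 5, and 1985 to 2936 with 1 male library left out. Of the single genes named, 3 that were not called changed sign: *Cs* was -0.0542 under quantile normalization, *Scd1* ranged from -0.018 to 0.36 and *Xist* from -0.11 to 0.23 with 1 library left out. Medians of 4 lists changed sign in 10 values (oxidative phosphorylation, other amino acids, cholesterol synthesis and endothelial markers). Of the 82 named genes that were called, 79 lost the call under at least 1 alternative. The causes were not tested. No paired analysis was possible because the numbers in the library titles are unique to each library. With 2 libraries against 3, and with depth unknown, a gene that was not called is not shown to be unchanged, and values near 0 FPKM carry little information.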

Other observations

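Antigen presentation, complement and mast cell genes are grouped here in lists chosen after their values were seen, so their counts are descriptions and no test was run on a list. Of 27 tested genes of the major histocompatibility complex (MHC) family, 17 were called lower and none higher, and the median difference was -1.19. Without overlap 23 were lower (85.2%, against 26.3% of all genes tested). *B2m*, the light chain of class I molecules, had 353 and 373 FPKM in KO_F and 1034, 663 and 683 in WT_F (-1.10 ± 0.20, limma adjusted p = 0.0378). *Cd74*, the invariant chain of class II molecules, had 59.5 and 58.4 FPKM in KO_F and 196, 105 and 141 in WT_F (limma adjusted p = 0.0404). WT_F replicate 1 was the highest of the 5 female libraries for both. In the males the median of these genes was 0.02 with KO_M replicate 1, the library with lymphocyte markers, and -1.10 without it. Many of these genes are near-identical copies, so single members of the family are uncertain.

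Of 19 tested complement genes, 12 were called lower and none higher, and the median was -1.04. Without overlap 17 were lower (89.5%) and 1 higher (5.26%), against 26.3% and 15.1% of all genes tested. *Cfp*, properdin, had 2.13 and 2.36 FPKM in KO_F and 4.61, 4.66 and 4.69 in WT_F (-1.05 ± 0.12, limma adjusted p = 0.0221). *C1qb*, a chain of the first component that macrophages make, had 8.77 and 9.76 FPKM in KO_F and 23.5, 16.9 and 17.9 in WT_F (limma adjusted p = 0.0282). *C1s1*, a protease of the same component, had 8.40 and 8.34 FPKM in KO_F and 21.4, 15.3 and 14.5 in WT_F (limma adjusted p = 0.0353). The exception was *Cd59a*, an inhibitor on the cell surface, with 23.1 and 24.1 FPKM in KO_F and 18.3, 19.4 and 18.9 in WT_F, higher without overlap and not called (limma adjusted p = 0.0846). *Cfd*, the adipocyte protease adipsin, had 1363 and 1854 FPKM in KO_F and 4114, 2079.9 and 1821 in WT_F, which overlapped.

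Mast cell proteases were lower. *Cma1*, a chymase, had 0.877 and 0.947 FPKM in KO_F and 3.67, 2.93 and 3.13 in WT_F, *Tpsb2*, a tryptase, 1.37 and 1.11 against 5.44, 4.45 and 3.05 (limma adjusted p = 0.0282), and *Mcpt4*, another chymase, 2.19 and 1.44 against 9.17, 7.74 and 4.67 (limma adjusted p = 0.0320). With *Cpa3*, a carboxypeptidase, these made 4 lower calls among 7 tested mast cell genes, and the male groups overlapped for all 4. *Gata2* (-0.02), *Hdc* (-0.11) and *Kit* (-1.21) overlapped in the females and were not called. In the males the median of the list was 0.33, and -0.72 without KO_M replicate 1.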
